A study of Homo sapiens with 11 samples.

Results

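The 6 genes described here, PTPN3, HAGH, TIMM10, RUSC1, TBX3 and SAMSN1, carried 3' UTR peaks of ZFP36L2 over input in the leukaemia line MOLM13 and no peak over input in the line THP1. They are 6 of the 6881 gene names in the input tables. Their rows comprise 11 peaks in MOLM13 replicate 1, 11 in replicate 2 and 0 in either THP1 replicate. The genes were picked from the measured folds over input, so those folds, and their absence in THP1, describe the choice and were not tested. Among 1364 protein-coding genes with overlapping 3' UTR peaks in both MOLM13 replicates, 91 (6.67%) had clusters but no peak over input in THP1, and the 6 genes belong to these. Against the IgG control the label holds less well, since RUSC1 was enriched in both THP1 replicates as well.

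RNA contacts of ZFP36L2 were located by eCLIP (enhanced crosslinking and immunoprecipitation), which sequences the RNA fragments that ultraviolet light has joined to a protein. For MOLM13 and THP1, established human acute myeloid leukaemia lines grown without any named treatment, there were 2 libraries with an antibody to ZFP36L2 and 2 with IgG each. Size-matched input, 2% of the lysate set aside before immunoprecipitation, gave 2 libraries in MOLM13 and 1 in THP1. Cells were crosslinked at 254 nm and 400 mJ/cm2, and material between 30 and 105 kDa was excised. Separate cultures are named for none of the duplicates, whose spread may therefore be technical. The sources do not state whether both THP1 replicates were set against the same input library.

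ZFP36L2 belongs to the TIS11 family of zinc finger proteins, which recognise AU-rich elements in 3' UTRs and recruit the enzymes that remove the poly(A) tail, so that the mRNA decays. Family members act in blood cells by limiting mRNAs of cytokines, cell cycle regulators and transcription factors. The 6 genes share no pathway. PTPN3 encodes a tyrosine phosphatase with FERM and PDZ domains, HAGH the glyoxalase that hydrolyses S-lactoylglutathione, and TIMM10 a small chaperone of mitochondrial protein import. RUSC1 encodes an adaptor with RUN and SH3 domains, SAMSN1 an adaptor with SH3 and SAM domains of haematopoietic cells, and TBX3 a T-box transcription factor that mostly represses.

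A cluster is a run of reads called in 1 immunoprecipitate, and a peak over input is a cluster whose log2 fold and −log10 p over input both reach 3. The folds and p-values of every cluster are the authors' own, taken from their deposited lists, and the read depth behind them is unknown here. The IgG lists hold all clusters, and 5.11% and 2.49% of them passed the same thresholds over IgG in MOLM13 replicates 1 and 2, and 5.74% and 8.36% in THP1. The median log2 fold over IgG was 0.28 and −0.60 in the MOLM13 lists and 0.0019 and 0.38 in the THP1 lists. Of 10 myeloid markers, 6 and 7 had a cluster in the MOLM13 replicates and 7 in each THP1 replicate, with CD14 and FCGR1A absent from all of them. ITGAM was absent from both MOLM13 replicates only, MPO from both THP1 replicates only, and CSF1R from MOLM13 replicate 1 only. Lymphoid markers had 0 or 1 of 7 and erythroid and megakaryocytic markers 0 or 1 of 6 in each immunoprecipitate. Coordinates are 1-based on hg38, and values stand for replicate 1 and then replicate 2.

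The letters of the 3' UTR sites were not used here, and the only stretch of a site of these genes read from the RefSeq promoter windows (GRCh38.p14) lies at the 5' end of TIMM10. It is shown because clusters of all 4 immunoprecipitates reached into it. It covers chr11:57530705-57530734 on the minus strand, and the capitals mark the 8 bases that the 4 clusters share within the window.
TIMM10 5' end: ctcgggaggcgggtaacgttatAGTATTTG

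PTPN3 had by far the strongest site of the 6. Its lead 3' UTR peak, meaning the overlapping pair of peaks with the highest lower fold, lay at chromosome 9, 109378888 to 109378954 in MOLM13 replicate 1. The replicate 2 peak at 109378903 to 109378910 is a fragment of the same site, since touching peaks together run from 109378833 to 109378960. The log2 folds were 7.02 and 6.67 against input. Against IgG they were 6.77 and 7.64, higher than 99.99% and 99.998% of all clusters in the MOLM13 lists. THP1 had a cluster over the same bases in each replicate, at 109378825 to 109378937 and 109378873 to 109378946. Their log2 folds over IgG were 1.14 and 2.38, with −log10 p of 0.152 and 1.04, so the PTPN3 site was occupied by reads in THP1 without passing either threshold.

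Another 3' UTR site of PTPN3, at 109378340 to 109378374, reached 4.23 and 3.28 (log2 fold over input) in MOLM13, with 3.24 and 3.92 against IgG. No THP1 cluster lay there. An intronic peak at 109403038 to 109403085 was listed over input in MOLM13 replicate 1 alone, with 4.73 over input and 2.16 over IgG. The overlapping clusters of replicate 2 had 1.19 and 1.55 over IgG. PTPN3 as a whole held 22 and 17 clusters in MOLM13 and 2 and 3 in THP1. The median cluster of the gene was close to the control in all 4 lists, at 0.28 and 0.21 in MOLM13 and 0.25 and −0.04 in THP1. Fewer clusters in THP1 thus stand beside the lower folds, and the part of the PTPN3 mRNA level in the result was not tested. In lysates of many cells, fewer cells with an mRNA and less of it per cell cannot be told apart.

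HAGH carried a single 3' UTR site in MOLM13, at chromosome 16, 1809095 to 1809199. Its log2 folds over input were 5.04 and 4.84 with −log10 p of 8.95 and 8.96. Over IgG the folds were 3.06 and 3.49, with −log10 p of 3.88 and 3.13, so both replicates passed by a narrow margin. The THP1 clusters at 1809065 to 1809235 and 1809066 to 1809256 enclosed the whole MOLM13 site and were longer than it. Their log2 folds over IgG were 2.97 and 1.55, the former just under the MOLM13 replicate 1 value, with a −log10 p of 2.00 that missed the threshold. With each list's median subtracted from its folds, HAGH no longer passed in MOLM13 replicate 1. HAGH had similar numbers of clusters in the lines, 6 and 5 in MOLM13 and 4 and 5 in THP1. An adjoining cluster upstream of the site lay near the control in MOLM13, with 0.51 and 0.10 over IgG.

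TIMM10 is a gene of 2291 bases, and its 3' UTR site lay at its very end, on chromosome 11. In MOLM13 replicate 1 the site was split into peaks at 57528615 to 57528654 and 57528655 to 57528689, whose log2 folds were 4.79 and 4.14 against input and 3.81 and 4.74 against IgG. In replicate 2 the split fell elsewhere, at 57528651 to 57528688 and 57528632 to 57528650, with 5.47 and 3.80 against input and 2.53 and 3.03 against IgG. A remainder of 11 bases next to it, not listed over input, had 0.40. The lead pair of TIMM10 shares only 4 bases for this reason, and its replicate 2 peak missed the IgG threshold, although the adjoining peak passed. The THP1 clusters over the site, at 57528622 to 57528684 and 57528646 to 57528670, had 0.42 and 1.70 over IgG. All 4 MOLM13 peaks over input had higher folds over IgG than both of these. With list medians subtracted, the TIMM10 lead peak passed over IgG in both MOLM13 replicates.

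TIMM10 also had a cluster in its 5' UTR in every immunoprecipitate, and the shared bases that fall inside the promoter window are printed above. In MOLM13 replicate 1 it was listed over input with a log2 fold of 3.08 at 57530676 to 57530719. Over IgG this end had 1.51 and 0.14 in MOLM13, against 0.14 and 2.90 for the THP1 replicates. THP1 replicate 2 was the highest of the 4 and its −log10 p was 1.79, so no library passed over IgG. The ranges of the lines overlapped at this end of TIMM10. At its 3' end the MOLM13 peaks over input lay above both THP1 clusters, but the remainder of 11 bases, with 0.40, did not. Among the 5 other genes, the RefSeq promoter windows met 1 more cluster, in HAGH in THP1 replicate 2, with −1.62 over IgG. TBX3 has no window in the table.

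RUSC1 went against the label over IgG. Its MOLM13 peaks, at chromosome 1, 155330626 to 155330784 and 155330647 to 155330848, had folds of 5.04 and 4.66 on the log2 scale over input, with −log10 p of 8.95 and 15.2. Over IgG they reached 2.47 and 4.31, so replicate 1 missed the fold threshold. The THP1 clusters at 155330658 to 155330790 and 155330659 to 155330789 had 3.49 and 4.16 over IgG, with −log10 p of 3.24 and 5.25, and passed in both replicates. Of the THP1 lists, 95.8% and 95.7% of clusters were lower. At thresholds of 4 for the fold and 5 for the −log10 p, replicate 2 alone passed. The values of the lines overlapped, with MOLM13 replicate 1 the lowest of the 4 and MOLM13 replicate 2 the highest.

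The RUSC1 clusters of THP1 are not listed over input, so they missed the fold or the p there, and their folds over input are not in the tables used. All 4 immunoprecipitates placed the site alike, and the clusters of MOLM13 and THP1 shared 127 bases in replicate 1 and 131 in replicate 2. RUSC1 had 3 and 3 clusters in MOLM13 and 2 and 3 in THP1, so cluster numbers did not set the lines apart here. Apart from the site, its clusters in THP1 lay below the control, between −2.41 and −0.62. Those of MOLM13 replicate 2 did so too, with −1.01 and −1.60, while a cluster away from the site in MOLM13 replicate 1 had 1.28. Of the 91 genes with 3' UTR peaks over input in MOLM13 only, 2 (2.2%) had a THP1 cluster at the lead site passing over IgG in both replicates, and RUSC1 is 1 of them. Of all 1364 lead sites 53.4% passed in this way. The 91 were chosen on the same THP1 immunoprecipitates, so their lower share follows in part from that choice.

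At the lead site, SAMSN1 showed the lowest THP1 fold over IgG of the 6 genes in each replicate. Its MOLM13 peaks at chromosome 21, 14485652 to 14485724 and 14485642 to 14485724, stood at 5.33 and 4.29 (log2 fold over input). Against IgG they had 4.34 and 2.94, so replicate 2 narrowly missed the fold threshold, and passed once list medians were subtracted. The THP1 clusters at 14485664 to 14485715 and 14485662 to 14485713 lay wholly inside the MOLM13 site. They had −0.32 and 0.96 over IgG, with a −log10 p of 0 in both, so neither stood out from its list, of which 33.8% and 60.1% was lower. Further along the 3' UTR of SAMSN1, clusters of MOLM13 had 2.70 in replicate 1 (14485289 to 14485449) and 1.79 in replicate 2 (14485424 to 14485469), and THP1 had no cluster there. SAMSN1 held 8 and 11 clusters in MOLM13 and 2 and 1 in THP1, and the part of the SAMSN1 mRNA level was not tested.

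All clusters of TBX3 lay between 114670729 and 114670932, near the 3' end of the gene. In MOLM13 the site at chromosome 12, 114670809 to 114670917 and 114670771 to 114670916, was the only cluster of the gene in each replicate, with log2 folds over input of 4.77 and 4.64. Against IgG the folds were 3.79 and 3.28, but the −log10 p of replicate 2 was 2.62 and missed the threshold. THP1 had 2 clusters in each replicate, and the stronger ones at 114670790 to 114670872 and 114670765 to 114670865 had 2.32 and 1.96 over IgG. All 4 values at TBX3 were above 1.9, which places the THP1 clusters above 87.8% and 79.0% of their lists. The gap between the lowest MOLM13 value and the highest THP1 value was under 1 log2 unit.

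**Figure D1:**
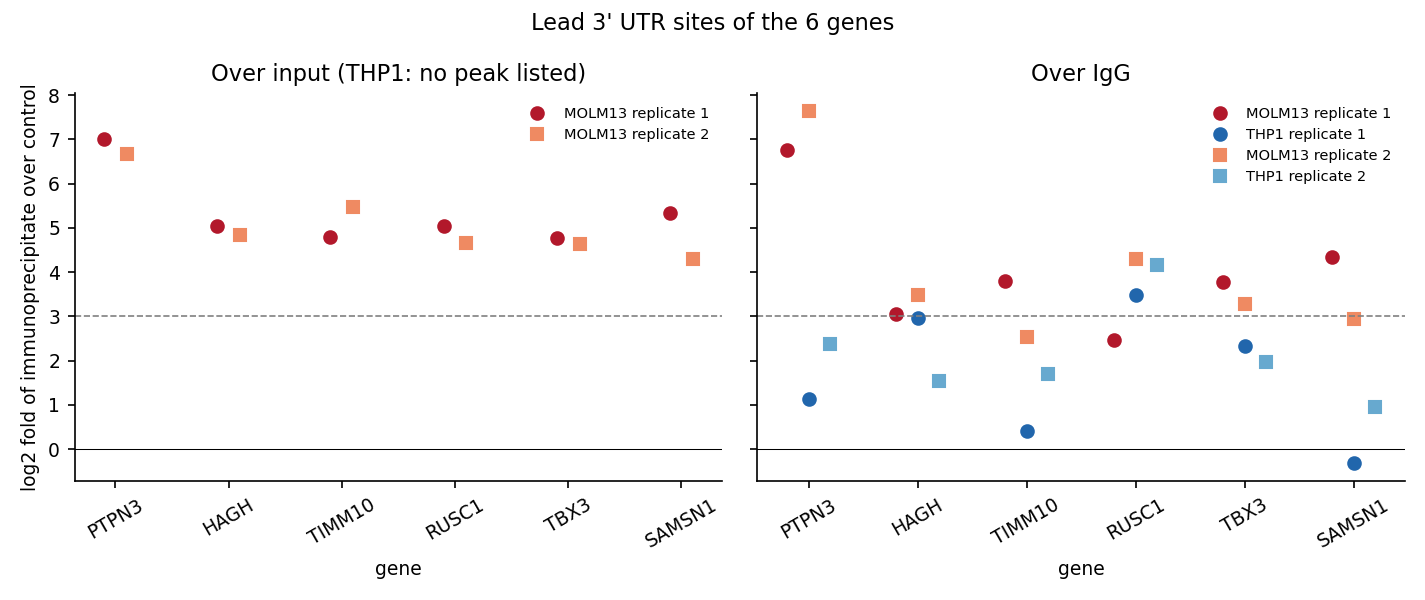
Log2 fold of the immunoprecipitate over input (left) and over IgG (right) at the lead 3' UTR site of each gene, a point for each replicate of MOLM13 (red and orange) and THP1 (dark and light blue), with a dashed line at the threshold of 3. PTPN3 stands highest over both controls (7.02 and 6.67 over input), and RUSC1 is the gene whose THP1 points (3.49 and 4.16) lie above the line.

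Taken over the 6 genes, lead sites passed over IgG in 5 genes in MOLM13 replicate 1 and 3 in replicate 2, and PTPN3 and HAGH passed in both. The shares over the 1364 genes were 70.3% in replicate 1 and 56.6% in replicate 2. Of all 1364 lead sites 49.7% passed in both MOLM13 replicates, and of the 91 MOLM13-only genes 23.1%. In THP1 every gene had a cluster at its lead site in both replicates, as did 98.5% of the 1364. The MOLM13-only class required a THP1 cluster within the gene in each replicate, so reads in these genes were part of the choice. For genes so chosen, absence from the THP1 input tables is not an absence of reads. Both MOLM13 folds over IgG were higher than both THP1 folds in 5 of the 6, all but RUSC1. At HAGH the margin was narrow, with 3.06 in MOLM13 replicate 1 and 2.97 in THP1 replicate 1. The medians of their lists, 0.28 and 0.0019, lie further apart than that, so the order at HAGH depends on the scaling. Both MOLM13 folds were higher than both THP1 folds in 21.8% of the 1364 genes and 68.1% of the 91. Since the 91 were selected on the same immunoprecipitates, nothing is read from these shares. PTPN3, TIMM10 and SAMSN1 had more clusters in MOLM13 than in THP1 in both replicates, as did 35.6% of the 1364 and 54.9% of the 91. No cluster lay on the opposite strand at any of the 6 lead sites. RefSeq places a noncoding gene over the site at HAGH and at SAMSN1. At SAMSN1 it lies on the opposite strand. At HAGH its strand was not available, so the check does not cover it.

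**Figure D2:**
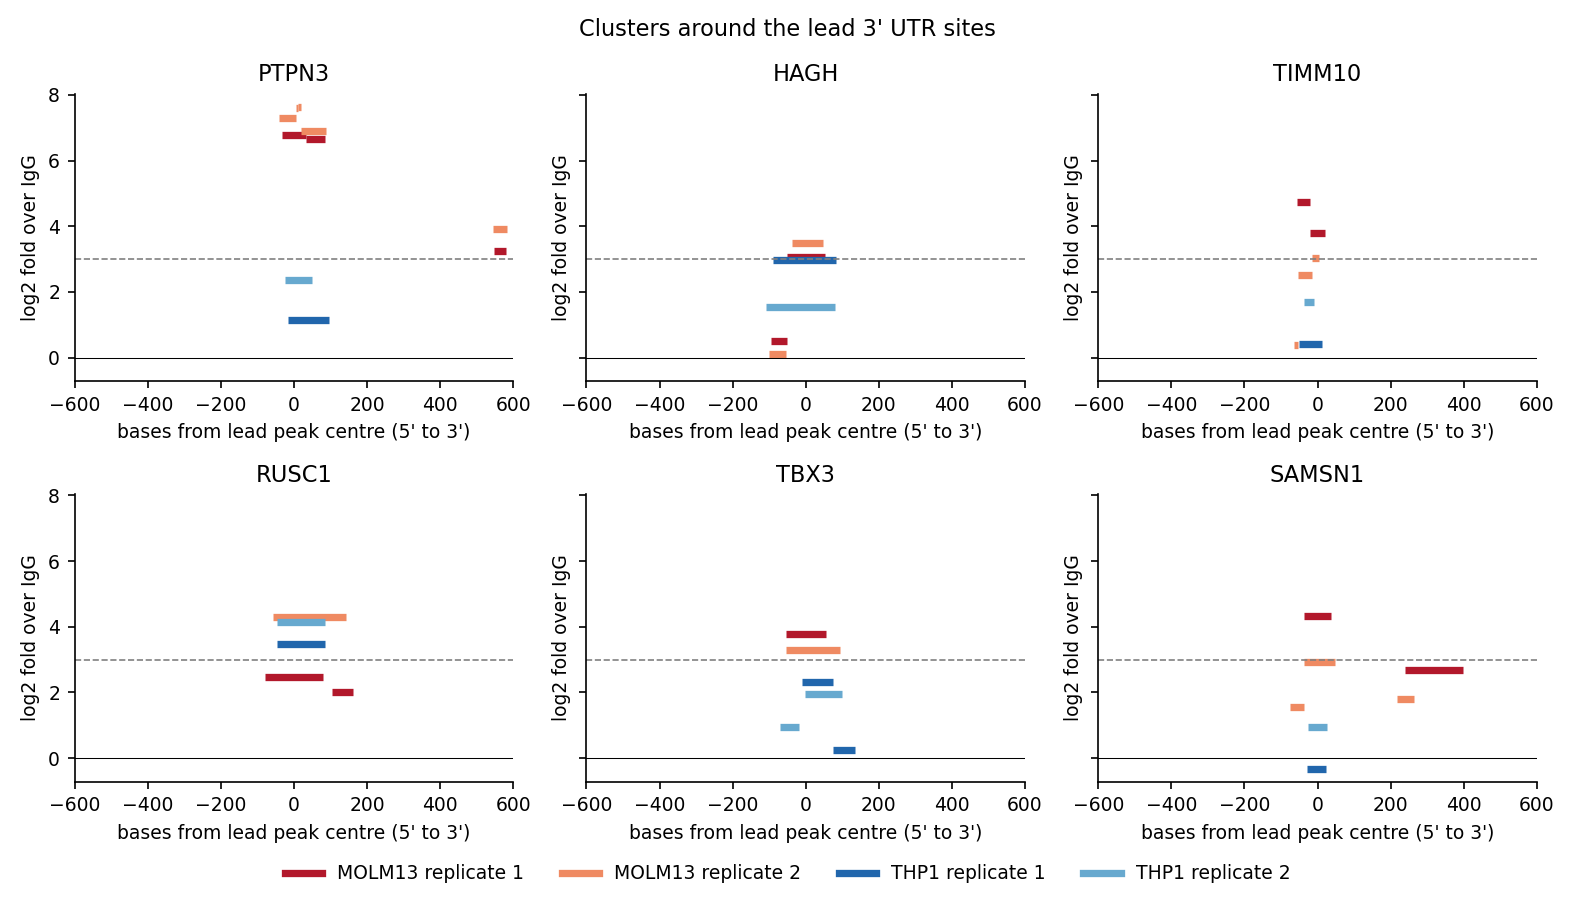
Clusters around the centre of the lead MOLM13 replicate 1 peak, drawn 5' to 3' along the mRNA as bars placed at their log2 fold over IgG, with MOLM13 in red and orange, THP1 in dark and light blue and a dashed line at 3. THP1 bars overlap the lead MOLM13 bars in position for all 6 genes and are lower than them except at RUSC1, where 2.47 in MOLM13 replicate 1 is the lowest of the 4 lead values. At HAGH the margin is narrow, with 3.06 in MOLM13 replicate 1 and 2.97 in THP1 replicate 1.

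The median log2 fold over IgG at the 6 lead sites was 3.80 and 3.39 in MOLM13 and 1.73 and 1.83 at the same sites in THP1. Over the 91 MOLM13-only genes the medians were 3.34 and 2.83, and 1.77 and 1.84. Over all 1364 genes they were 3.61 and 3.37, and 3.46 and 3.77. The medians of the 6 genes were thus close to those of all 3' UTR sites in MOLM13 and lower in THP1, on contrasts that the choice of genes had used. By the lower fold over input, which ranks the 91, SAMSN1 with 4.29 is the last of the 6 and ISOC1 with 4.29 and TGIF1 with 4.28 come just after it. INHBA and MYC stand among the 6 in that order, with 5.40 and 4.79.

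**Figure D3:**
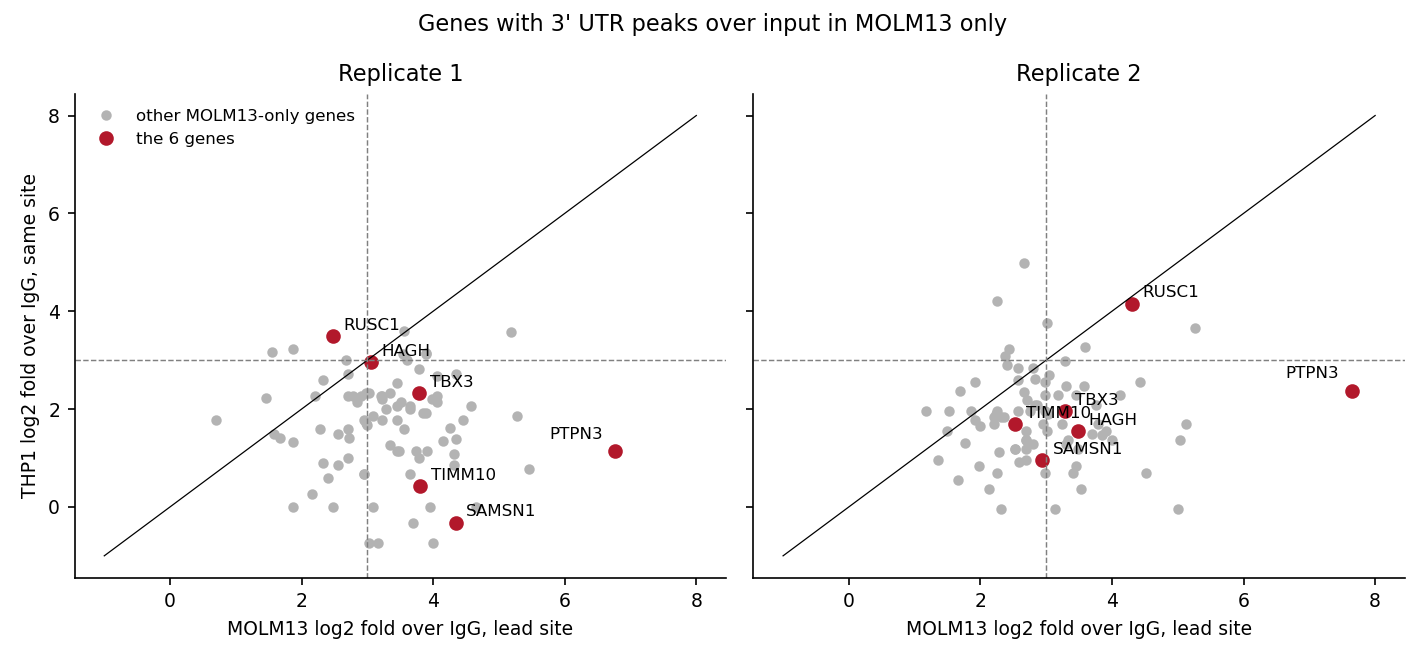
Log2 fold over IgG at the lead 3' UTR site in MOLM13 (horizontal) against the highest THP1 cluster at the same site (vertical) for the 91 genes with peaks over input in MOLM13 only, by replicate, with the 6 genes in red, dashed lines at 3 and a line of equality. PTPN3 lies farthest to the right (6.77 and 7.64), and RUSC1 is above the line of equality in replicate 1 and close to it in replicate 2.

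The folds over input and over IgG of a site share the immunoprecipitate, so their difference compares the controls, on a scale that is not stated. At TIMM10, TBX3 and SAMSN1 in MOLM13 replicate 1 this difference was the same, 0.985, and 21.6% of all lead sites had that value to within 0.0001. At HAGH, TBX3 and SAMSN1 in replicate 2 it was 1.35, shared by 24.6% within the same tolerance. At the RUSC1 site it was 2.57 in replicate 1 and 0.35 in replicate 2, and at TIMM10 0.985 and 2.94, which are the widest gaps between replicates among the 6. The TIMM10 lead peaks share only 4 bases, so the gap there compares different stretches of the site. At PTPN3 the difference of the folds was 0.25 and −0.97. HAGH and RUSC1 had the same fold and p over input in MOLM13 replicate 1 to every digit deposited, and between 86.2% and 89.6% of the peaks in each input table share fold and p with another peak.

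The sites differ in size and place. Lead peaks of MOLM13 replicate 1 were 40 (TIMM10) to 159 bases (RUSC1) long, with a median of 89 against 85 over the 1364 genes. Their centres lay 171 (TIMM10) to 3227 bases (PTPN3) from the 3' end of the gene, with a median of 534 against 1009. The whole lists held 140287 and 182486 clusters in MOLM13 and 153162 and 143910 in THP1, and counts per gene were not adjusted for this. The number of clusters per gene had medians of 4.5 in each MOLM13 replicate and 2 and 2.5 in THP1. All 1364 genes had medians of 10 and 13, and of 10 in each THP1 replicate. These are descriptions of 6 genes chosen for their folds.

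Likeness was measured as Euclidean distance over 6 values from the 4 immunoprecipitates, which are the folds over input and over IgG of the lead peak in MOLM13 and the highest fold over IgG of the gene in THP1. Among 89 candidates, ISOC1 was nearest to TBX3 (0.746) and TBX3 to HAGH (1.13). SAMSN1 was nearest to the prostaglandin E2 receptor gene PTGER2 (1.72), TIMM10 to E2F6 (1.76) and RUSC1 to MYC (1.93). PTPN3 had no close match, with INHBA at 4.89. In THP1 the highest folds over IgG of MYC were 2.33 and 3.48, against 3.49 and 4.16 for RUSC1.

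Relatives of the 6 genes were followed through fixed lists of 44 genes, the 6 included. Of the 38 relatives, 3 had a 3' UTR peak over input in both MOLM13 replicates, GLO1, RUSC2 and SASH1, and GLO1 and RUSC2 had them in both THP1 replicates too. The 6 genes themselves were chosen for such peaks. Of the 44 genes, 23 had clusters in all 4 immunoprecipitates and 16 had a peak over input in any table. Overlapping 3' UTR peaks in both MOLM13 replicates were found for 1364 protein-coding genes, beside 6881 gene names in the input tables. GLO1, which forms the thioester that HAGH cleaves, had 3' UTR peaks up to 4.63 and 4.46 over input in MOLM13, and up to 5.81 and 5.94 in THP1 (log2 fold). Over IgG these GLO1 peaks had 4.64 and 3.62, and 5.98 and 6.38. The glyoxalase pair thus differs in the THP1 tables, with GLO1 listed over input there and HAGH not, a difference that the choice of HAGH fixes and that was not tested.

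RUSC2, the paralogue of RUSC1, had its highest 3' UTR log2 folds over input at 4.83 and 6.39 in MOLM13, where those peaks had 3.10 and 5.04 against IgG. In THP1 they were 6.80 and 6.33, with 4.56 and 4.33 against IgG. Both RUSC genes therefore passed over IgG in their 3' UTR in both THP1 replicates. SASH1, a relative of SAMSN1, had 3.66 and 3.51 in MOLM13 and 4.25 in THP1 replicate 1, with no 3' UTR peak in replicate 2. SASH3, the lymphoid member of that group, had no peak in any table.

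Among 14 import subunits, TIMM10 was the only gene with 3' UTR peaks over input in any table, and it was chosen for them. Clusters in all 4 immunoprecipitates were found for 9 of the 14. TIMM9, the partner of TIMM10 in the intermembrane space complex, had peaks in both lines outside the 3' UTR. Its highest was in the 5' UTR in MOLM13 replicate 1 (4.97) and in an intron in the other 3 immunoprecipitates (6.81 in MOLM13, 6.04 and 5.67 in THP1). TIMM17A, a subunit of the inner membrane translocase, had intronic peaks of 7.29 and 7.01 in MOLM13 and 8.36 and 7.50 in THP1.

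Of 17 T-box genes, TBX3 alone had 3' UTR peaks in both replicates of a line, and it was chosen for them. TBX1 had a 3' UTR peak of 3.61 over input and 0.67 over IgG in MOLM13 replicate 2. MGA, a T-box protein that dimerises with MAX, had a 3' UTR peak of 3.19 in MOLM13 replicate 1 and of 3.74 in THP1 replicate 2, and stronger intronic ones between 5.81 and 6.71. Clusters in all 4 immunoprecipitates were found for 4 T-box genes. Of the other FERM-domain phosphatases, PTPN14 had intronic peaks over input in both THP1 replicates (3.68 and 4.02). In MOLM13 replicate 1 its peak (4.01) lay in an intron of a noncoding transcript. Over IgG these peaks had 2.43 and 3.02 in THP1 and 1.02 in MOLM13, and no PTPN14 cluster passed in any immunoprecipitate. PTPN4, PTPN13 and PTPN21 had no peak over input.

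**Figure D4:**
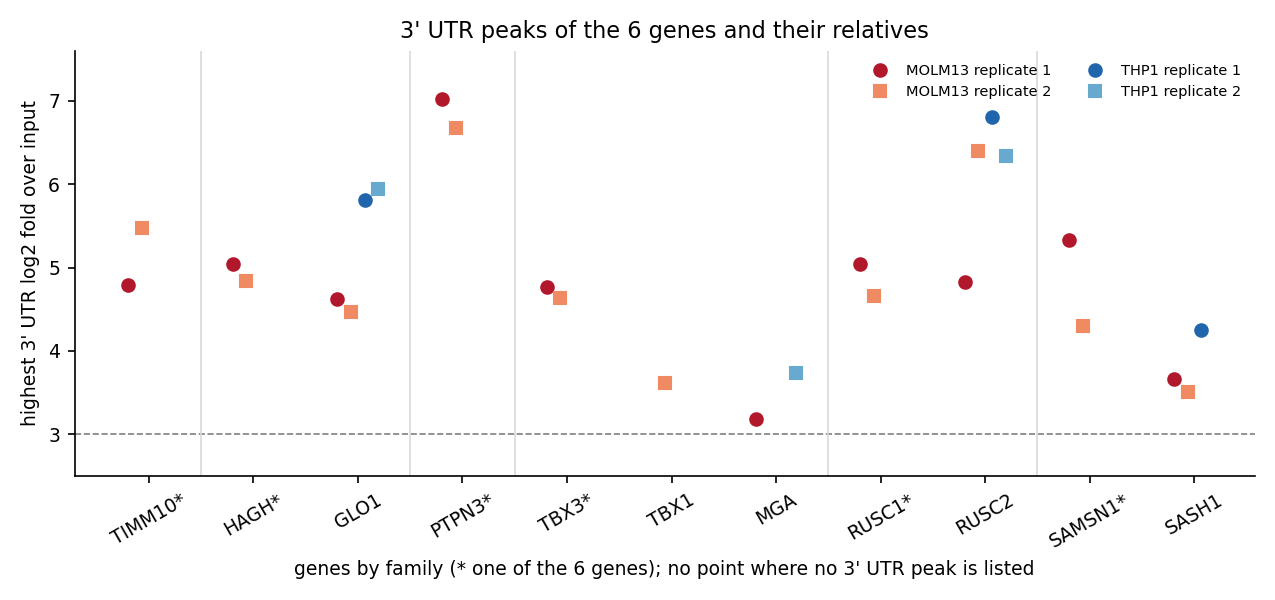
Highest 3' UTR log2 fold over input in each immunoprecipitate (red and orange for MOLM13, dark and light blue for THP1) for the 6 genes, marked with an asterisk, and for relatives with at least 1 such peak, grouped by family, with a dashed line at 3 and no point where no peak is listed. GLO1 and RUSC2 have points in all 4 immunoprecipitates, while HAGH and RUSC1 have points in MOLM13 only.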

How the data were processed

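Per the submitters' processing notes, reads were handled with cutadapt 1.14, STAR 2.5.0c, Picard 2.6.0 and edgeR, with hg19, GRCh37 and hg38 named as builds and no roles given. These notes, the labels and the headers do not name the peak caller, the scaling of the folds or the test behind the p-values. The authors called clusters in each immunoprecipitate by itself and deposited log2 folds and −log10 p-values over input (peaks with both at least 3) and over IgG (every cluster, −log10 p capped at 400 and 0 below the control). Between 19 and 30 peaks per input table had no cluster of identical coordinates in the IgG list of the same immunoprecipitate.

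Starts were made 1-based, and overlap meant 1 shared base on the same strand. Of 6881 gene names, 6259 matched RefSeq symbols (GRCh38.p14), 187 as older symbols, and clusters were assigned to genes by RefSeq span. Strand came from the promoter table or the named peaks, and genes with neither were searched on both strands. The lead site, the class of MOLM13-only genes, the families and markers, the likeness measure and the rank neighbours define the genes named. Members and lists were chosen with earlier results of these data known. No test was run, because the genes were chosen on these contrasts and no contrast was independent of that choice. Alternatives changed the thresholds, the overlap, the replicates used and the assignment of genes. Python 3.11.15 with pandas 2.3.3 and matplotlib 3.10.9 was used.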

Additional observations from a re-analysis of the deposited data

Results flagged for a closer look

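RUSC1 stands out because its cluster at the lead site was enriched over IgG in THP1, with log2 folds of 3.49 and 4.16, in a line whose input tables list no RUSC1 peak. Of all 1364 lead sites, 53.4% were enriched over IgG in both THP1 replicates, against 2.2% of the 91 MOLM13-only genes. The folds of these clusters over input are not in the tables used, so the values over the controls could not be set side by side. In groups of 2 replicates no outlying value was looked for.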

How the results depend on the processing

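At thresholds of 4 for the log2 fold and 5 for the −log10 p, 45 genes in place of 91 had 3' UTR peaks in MOLM13 only, PTPN3 alone of the 6 (1 gene) passed over IgG in both MOLM13 replicates, and 0 passed over IgG in both THP1 replicates, at the lead site or anywhere in the gene (RUSC1 passed in replicate 2 alone). Leaving out 1 immunoprecipitate, which asks less of a gene, gave 145 to 218 MOLM13-only genes (184 and 218 without MOLM13 replicates 1 and 2, 150 and 145 without THP1 replicates 1 and 2), 2 to 5 of the 6 genes passing over IgG in MOLM13, and RUSC1 as the 1 gene passing in THP1 each time. Without MOLM13 replicate 2 the 5 were all but RUSC1. All 6 genes stayed among the MOLM13-only genes in the 8 alternatives run for that count. Several of these only asked less of a gene, and the lowest lead fold over input among the 6, 4.29, already exceeded 4. Their staying thus largely followed from the choice and is no support for the label. Subtracting each list's median from the folds over IgG, chosen after seeing the data, made PTPN3, TIMM10 and SAMSN1 the genes passing in both MOLM13 replicates and took HAGH out, while RUSC1 still passed in THP1. Overlap by at least 0.5 of each interval, no cluster needed in THP1, and assignment by gene span gave 87, 103 and 89 MOLM13-only genes. The search for AU-rich motifs in the lead peaks was not run, as no genome was used here. No paired analysis was possible because the results come from no test. Depth is not given, so folds near a threshold, as at HAGH and SAMSN1, cannot be given an interval.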

Other observations

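SRSF2, a splicing factor gene mutated in myeloid neoplasms, is the other MOLM13-only gene whose lead 3' UTR site was enriched over IgG in both THP1 replicates, with log2 folds of 3.57 and 3.27 and −log10 p of 13.5 and 8.81. In MOLM13 the log2 folds at the SRSF2 site were 3.85 and 4.17 against input and 5.19 and 3.59 against IgG. SRSF2 was picked out here after its values were seen.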
